A study of Mus musculus with 2 samples.

Results

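Of 16943 autosomal tiles with 10 to 19 CpGs measured in both libraries, 1172 (6.92%) were between 35% and 65% methylated in Rex1-high and in Rex1-low embryonic stem cells (ESCs). A tile is a stretch of 2500 bp counted from the start of each chromosome, a CpG entered with 5 or more methylation calls in each library, and the level of a tile is the mean of the methylated shares of its CpGs. The members were thus selected on these measured levels, which are described here and not tested. The members were taken from 264791 tiles that held at least 1 CpG measured in both libraries. Methylation was measured by reduced representation bisulfite sequencing (RRBS), in which DNA is cut by restriction enzymes, here MspI and TaqI, and size-selected fragments are treated with bisulfite and sequenced, so that unmethylated cytosines are read as thymines. There was 1 library from cells sorted as Rex1-high and 1 from cells sorted as Rex1-low. Both came from a Rex1-dGFP knockin reporter line of E14 mouse ESCs (129/Ola background), in which destabilised GFP marks expression of Rex1 (also known as Zfp42), a gene active in naive pluripotent cells, and both were grown on gelatin with LIF and 10% serum. The model is thus 1 reporter line in which both states carry the same knockin allele. With no replicate libraries, the spread between cultures is unknown and every interval below covers counting error only.

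DNA methyltransferases place methyl groups on cytosines of CpG dinucleotides and TET enzymes start their removal. CpG islands at many promoters are kept free of methylation, while most other CpGs of a differentiated genome are methylated in nearly every cell. An intermediate level of a region can come about in more than one way. Each CpG may be methylated in part of the cells or on 1 of the 2 alleles, as at the control regions of imprinted genes, or methylated and unmethylated CpGs may lie side by side within the region. The levels of single CpGs tell the first kind from the last, but cell-to-cell and allelic differences cannot be told apart in these files.

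The promoters of 5 genes in member tiles show how such regions differ at single CpGs. They were placed on the measured positions by the spacing of their CpGs, and they are those of member tiles that stayed in the window without CpGs whose 2 records disagreed (1 with 80% or more, its partner with 20% or less) and that had 5 or more measured CpGs of the member tile itself in the bases printed. The promoter of Dmrtc2 lay across 2 adjacent members and is described with them. Each sequence is the 250 bases before the annotated start site, taken from RefSeq (GRCm38.p6) and read 5′ to 3′ on the strand of the gene. CpGs of the member tile measured in both libraries are in capitals.
Pde11a: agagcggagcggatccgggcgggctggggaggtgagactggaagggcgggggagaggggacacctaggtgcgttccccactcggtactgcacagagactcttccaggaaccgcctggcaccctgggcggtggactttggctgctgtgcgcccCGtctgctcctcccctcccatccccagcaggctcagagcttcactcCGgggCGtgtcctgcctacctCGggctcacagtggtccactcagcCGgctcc
Smtnl2: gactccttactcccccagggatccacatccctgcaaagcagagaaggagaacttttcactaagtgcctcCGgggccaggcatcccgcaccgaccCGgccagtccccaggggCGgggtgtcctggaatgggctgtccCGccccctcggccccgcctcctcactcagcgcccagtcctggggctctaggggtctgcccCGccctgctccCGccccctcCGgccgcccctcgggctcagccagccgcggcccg
Gm34267: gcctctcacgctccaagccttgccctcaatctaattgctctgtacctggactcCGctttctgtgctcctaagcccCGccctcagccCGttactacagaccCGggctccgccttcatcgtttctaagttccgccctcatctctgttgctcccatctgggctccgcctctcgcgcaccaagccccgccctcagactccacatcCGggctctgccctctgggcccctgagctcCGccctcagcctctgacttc
Gm35624: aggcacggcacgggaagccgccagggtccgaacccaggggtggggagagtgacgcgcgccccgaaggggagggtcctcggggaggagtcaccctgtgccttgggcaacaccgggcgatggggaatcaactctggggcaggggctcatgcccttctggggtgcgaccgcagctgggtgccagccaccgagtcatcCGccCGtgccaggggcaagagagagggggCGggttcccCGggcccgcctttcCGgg
Gm51541: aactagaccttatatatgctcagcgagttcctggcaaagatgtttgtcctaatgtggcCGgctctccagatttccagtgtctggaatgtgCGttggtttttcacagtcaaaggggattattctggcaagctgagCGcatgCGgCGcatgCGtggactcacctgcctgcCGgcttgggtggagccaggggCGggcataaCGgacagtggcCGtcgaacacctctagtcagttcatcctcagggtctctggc
In GRCm38.p6 these bases are chr2:76338939-76339188 (minus strand) for Pde11a, chr11:72411714-72411963 (minus) for Smtnl2, chr10:22058655-22058904 (minus) for Gm34267, chr11:46166354-46166603 (plus) for Gm35624 and chr8:83583326-83583575 (minus) for Gm51541. Pde11a encodes a phosphodiesterase of cAMP and cGMP and Smtnl2 encodes a smoothelin-like protein.

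In the Pde11a promoter, 3 of the 5 measured CpGs were unmethylated or nearly so. The CpGs at bases 153, 204 and 220 of the printed sequence were at 0%, 0% and 0% in Rex1-high and at 0%, 1.43% and 0% in Rex1-low. The CpGs at bases 199 and 244 were at 54.2% and 39.1% in Rex1-high and at 49.5% and 48.0% in Rex1-low. Both of the latter stand inside CCGG, the sequence that MspI cuts. The Smtnl2 promoter had the same arrangement. Its CpGs at bases 112, 137, 197 and 208 were at 0% in both libraries, whereas those at bases 70, 95 and 217, all inside CCGG, were at 61.1%, 43.7% and 50% in Rex1-high and at 72.4%, 41.9% and 50% in Rex1-low. In the Gm35624 promoter the CpGs at bases 195, 199 and 224 had at most 7.69% in either library. Its CpGs inside CCGG were at 58.3% and 90% (base 233) and at 0% and 57.1% (base 247). In the Gm34267 promoter 4 CpGs were at 0% in both libraries, and those inside CCGG were at 16.7% and 51.7% (base 101) and at 100% and 100% (base 202), from 6 calls each in Rex1-high. The Gm51541 promoter differed. Of its 10 measured CpGs, 8 stand outside the enzyme sites, and their mean level was 23.2% in Rex1-high and 55.3% in Rex1-low. The CpG at base 210 among them was at 100% in Rex1-high from 6 calls, and the 7 others had means of 12.3% and 54.3%.

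The enzyme sites were examined in all promoters that could be placed. Of 31396 autosomal RefSeq promoters of 300 bases, 8968 matched the measured positions at 1 place on their chromosome, and these held 133628 CpGs measured in both libraries, 25110 (18.8%) of them inside CCGG or inside TCGA, the sequence that TaqI cuts. Both sequences read the same on either strand and cannot share a CpG. Of all 32851 promoters, 47.1% held CCGG and 18.5% held TCGA in the 250 bases before the start site. The median level was 52.9% in Rex1-high and 54.5% in Rex1-low over 22206 CpGs inside CCGG. It was 52.7% and 55.4% over 2904 CpGs inside TCGA. Over the 108518 other CpGs of the same windows it was 0% and 0%. Between 20% and 80%, the range called intermediate here, lay 88.0% of the CpGs at enzyme sites and 0.607% of the others in Rex1-high, and 83.3% and 1.16% in Rex1-low. Of all intermediate CpGs in these windows, 97.1% in Rex1-high and 94.3% in Rex1-low were thus CpGs of enzyme sites. Per the labels the ends of the fragments were filled in before the adapters were ligated, and whether filled-in bases entered the calls was not tested.

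**Figure D1:**
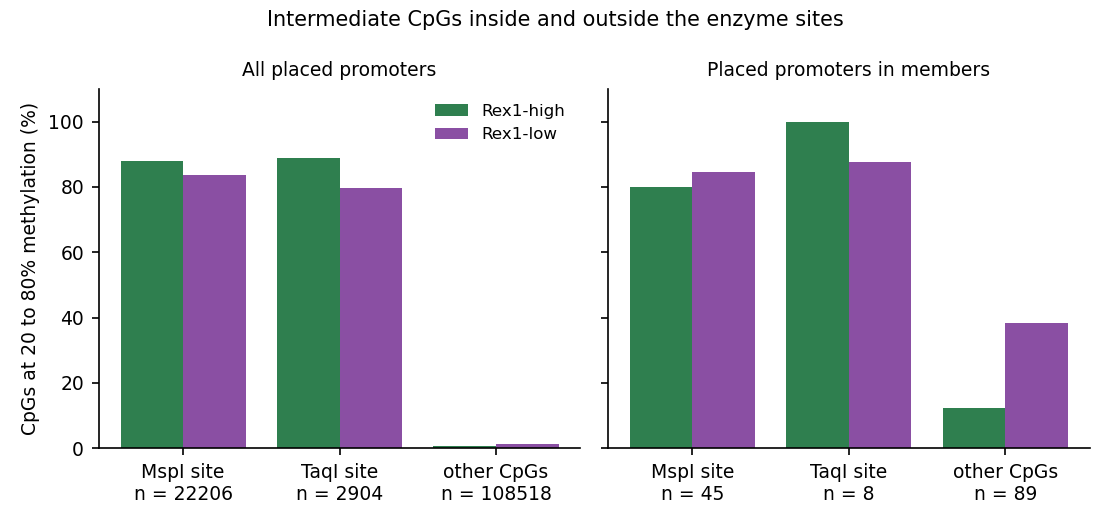
Share of CpGs (in %, vertical axis) at 20 to 80% methylation, for CpGs inside CCGG (MspI site), inside TCGA (TaqI site) and elsewhere, in Rex1-high (green) and Rex1-low (purple). In all placed promoters the bars of the enzyme sites stand between 79.8% and 89.0% and those of the other CpGs at 0.607% and 1.16%, while in member tiles the other CpGs reach 12.4% and 38.2%.

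The excess shrank where the surrounding CpGs were methylated. In windows whose other CpGs averaged 10 to 35% in Rex1-high, CpGs at enzyme sites had a mean of 60.0% in Rex1-high and 68.9% in Rex1-low, against 17.4% and 34.3% for the others. In windows with other CpGs at 35 to 65% in Rex1-high, the means were 70.6% and 87.6% at 44 enzyme-site CpGs, against 47.2% and 77.4% at 103 others. Within members, 142 of 15042 measured CpGs (0.944%) had a known sequence, and all lay near start sites, so that they do not stand for the members at large. Of these 142 CpGs, 53 (37.3%) were at enzyme sites. Their mean was 53.9% in Rex1-high and 55.8% in Rex1-low, and that of the 89 others was 8.59% and 17.7%. Of 55 intermediate CpGs in Rex1-high, 44 (80%) were at enzyme sites, and of 79 in Rex1-low, 45 (57.0%) were. The share of enzyme sites among the other CpGs of the members is not known here, since no sequence of the build of the files was used. In 235 tiles of 10 to 19 CpGs, 1 of them a member, at least 80% of the CpGs had a known sequence. A median of 22.2% of those CpGs were at enzyme sites. Without these sites the median level of the 235 tiles went from 15.3% to 0.827% in Rex1-high and from 17.9% to 1.19% in Rex1-low. The size of such a shift in the members at large was not tested.

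Within the window, the members stood near its lower edge in Rex1-high and toward its upper edge in Rex1-low. The median level was 39.6% in Rex1-high (35.01 to 58.2%) and 57.6% in Rex1-low (35.04 to 64.997%). In Rex1-high, 622 members (53.1%) were below 40%, 364 were at 40 to 45% and 186 were higher. In Rex1-low, 244 were below 50%, 505 were at 50 to 60% and 423 were above that. Only 52 members had 50% or more in both libraries, 243 had less than 50% in both, and 876 crossed 50% from Rex1-high to Rex1-low. At the lower edge, 276 members lay within 2 points inside the window in Rex1-high, at a median of 36.0%, and 333 tiles lay within 2 points outside it, at 34.0%. Their Rex1-low medians were 53.2% and 50.5%. At the upper edge in Rex1-low, 182 members within 2 points had a median of 64.0%, and 218 tiles just outside had 66.1%. These tiles were picked by their distance from the edge, so their levels are given as a description.

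**Figure D2:**
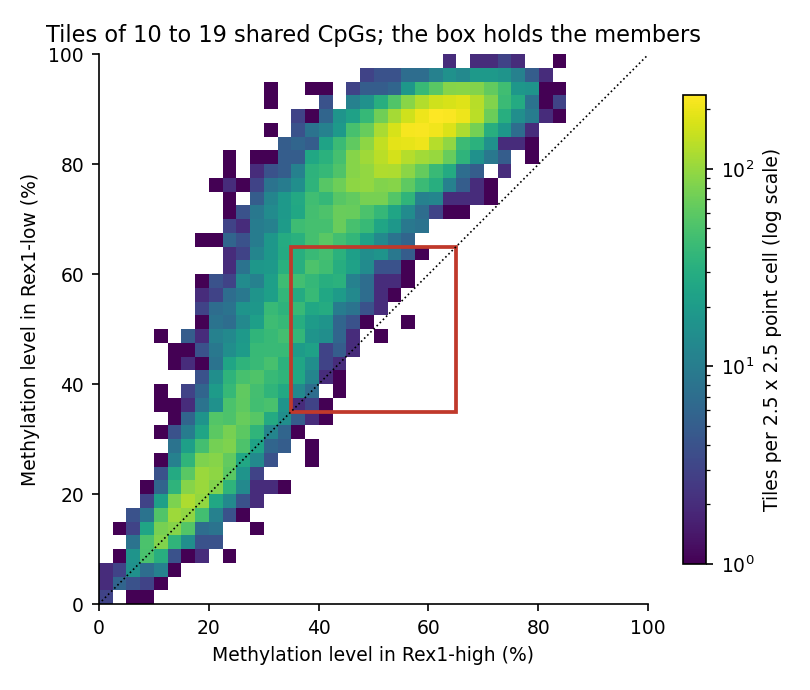
Level of all 16943 tiles of 10 to 19 CpGs in Rex1-high (horizontal axis, %) against Rex1-low (vertical axis, %), with the number of tiles per cell as color on a log scale and the dotted line at equal levels. The 1172 members fill the upper left of the red box, which spans 35 to 65% on both axes, with medians of 39.6% and 57.6%.

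The level in Rex1-low was above that in Rex1-high in 1160 members and below it in 12. The median difference was 15.8 points (Rex1-low minus Rex1-high), from −4.86 to 29.0, with a median 95% counting interval of ±7.21 points for a single member. In 901 members the difference was 10 points or more, in 303 it was 20 points or more, and in 94 it was under 5 points in size. All calls of a tile were added up and compared by Fisher's exact test, adjusted after Benjamini and Hochberg over the 158677 tiles with 3 or more CpGs. With a minimum difference of 10 points this test called 846 members (72.2%) more methylated in Rex1-low, where 75.7% of all tiles were called so. It called 0 members less methylated, against 0.0315% of all tiles. At single CpGs Fisher's exact test was adjusted over 1667575 CpGs, and calls needed an adjusted p under 0.05 but no minimum difference. It called 2364 of 15042 (15.7%) higher in Rex1-low, against 12.7% of all CpGs, and 57 (0.379%) lower, against 0.243%. The window was set on these 2 libraries, so nothing is read from these shares.

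Most tiles that were intermediate in Rex1-high were not so in Rex1-low. Of 9711 tiles at 35 to 65% in Rex1-high, 1172 (12.1%) were members, 11 were under 35% in Rex1-low and 8528 were over 65%. The last group, called gaining tiles below, had medians of 54.3% in Rex1-high and 83.1% in Rex1-low. Of 3028 tiles at 35 to 65% in Rex1-low, 1172 (38.7%) were members, 1856 were under 35% in Rex1-high and 0 were over 65%. The median number of CpGs was 12 in both groups, and the median number of calls per tile was 367 in Rex1-high and 342 in Rex1-low for members and 346 and 288 for gaining tiles. In Rex1-low the members thus had more calls, and 58.9% of their CpGs had 2 records, against 51.8% in gaining tiles. At the median depth of members the Wilson interval of a pooled tile share was ±4.97 points in Rex1-high and ±5.08 points in Rex1-low. The Rex1-high file held 60718476 calls and the Rex1-low file 61024229.

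Few members were uniform at single CpGs, and fewer were made of high and low CpGs alone. A tile was called uniform if at least 70% of its CpGs were intermediate in each library, and mixed if at most 30% were. Uniform were 174 members, or 14.8% (exact 95% interval 12.9 to 17.0%), against 3.15% of all tiles of 10 to 19 CpGs. Mixed were 3 members, or 0.256% (0.0528 to 0.746%), against 9.91% of all. The 995 others (84.9%) lay between. Levels at the ends of the scale have few intermediate CpGs by construction, so the shares over all tiles are a background and not a contrast. The median share of intermediate CpGs in a member was 60.6% in Rex1-high and 60.0% in Rex1-low. How many of the intermediate CpGs stood at enzyme sites was not tested outside the placed promoters, which bears on both classes. The class depends on how it is measured. By the standard deviation (SD) among the CpGs of a tile after subtraction of the counting variance, 0.256% of members were below 15 points in both libraries and 22.2% were above 30 points in both. With intermediate defined as 25% to 75%, the uniform share was 4.01%. Uniform members had medians of 41.4% in Rex1-high and 60.1% in Rex1-low, and their CpGs spanned a median of 712 bp, against 1403 bp in the members between the classes.

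Compared with gaining tiles of a similar level in Rex1-high, members were more uneven. Among tiles at 35 to 45% in Rex1-high, 986 members had a median SD of 27.4 points in Rex1-high (quartiles 24.3 and 30.9), and 1323 gaining tiles had 22.7 points (19.6 and 26.0). The groups were split by their Rex1-low level, with medians of 56.8% and 73.9%, so this is a description and the SD in Rex1-low is not compared. Their median levels in Rex1-high were 38.8% and 41.4%. The median share of intermediate CpGs in Rex1-high was 60.0% in those members and 73.7% in those gaining tiles. The order was kept in each 5-point step up to 55%: at 35 to 40% the SD in Rex1-high was 27.4 points in members and 22.8 in gaining tiles, at 40 to 45% it was 27.4 and 22.6, at 45 to 50% it was 27.1 and 21.9, and at 50 to 55% it was 25.6 and 20.4, the last over 44 members. CpGs with disagreeing records were present in 86.3% of the members and 63.7% of the gaining tiles at 35 to 40%, and their part in the difference was not tested. Without those CpGs the SD in Rex1-high at this level was 28.2 points in members and 23.2 points in gaining tiles. The CpGs of members also lay over a longer stretch. Their median span was 1249 bp, against 795.5 bp in gaining tiles, at 35 to 40%, and 1275 bp against 972 bp at 40 to 45%. The part of the span in the difference was not tested.

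Both poorly and highly methylated CpGs were found in members beside the intermediate ones. Of 15042 member CpGs, 30.9% were under 20% methylated in Rex1-high, 61.9% were intermediate and 7.22% were over 80%. In Rex1-low these shares were 16.7%, 57.4% and 25.9%. In gaining tiles, 8.52% of 106517 CpGs were under 20% in Rex1-high and 1.41% in Rex1-low, and 62.9% were over 80% in Rex1-low. Gaining tiles are higher in level by the selection, which bears on these shares. Among tiles at 35 to 45% in Rex1-high, 32.9% of 12750 member CpGs and 22.2% of 16992 CpGs of gaining tiles were under 20% in that library, 60.5% and 73.3% were intermediate, and 6.54% and 4.48% were over 80%. The median level of these tiles in Rex1-high was 38.8% in members and 41.4% in gaining tiles, which bears on these shares. Over the 7774 member CpGs with 20 or more calls in each library, 29.0% were under 20%, 67.1% intermediate and 3.94% over 80% in Rex1-high, and 14.2%, 60.5% and 25.3% in Rex1-low. The share over 80% in Rex1-high was thus lower among the deeper CpGs.

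**Figure D3:**
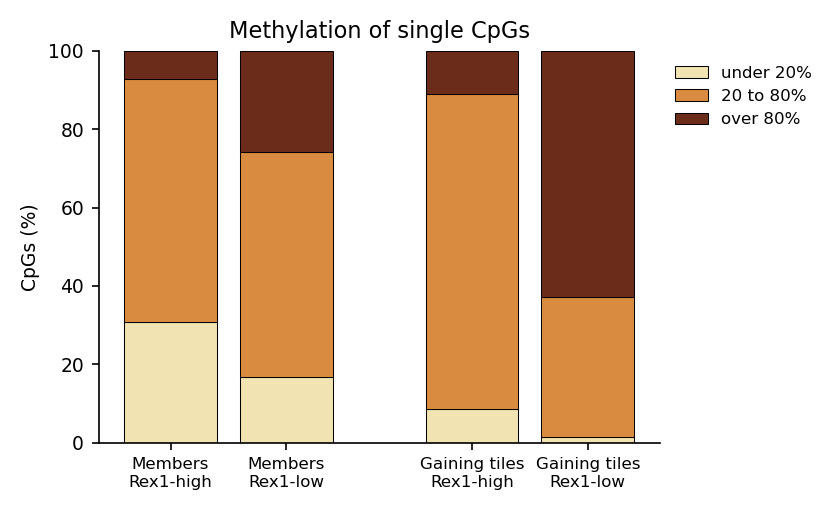
Share of single CpGs (vertical axis, %) under 20%, at 20 to 80% and over 80% methylation in members and gaining tiles in each library. In members 61.9% and 57.4% of CpGs are intermediate in Rex1-high and Rex1-low, while in gaining tiles the intermediate share is 80.5% in Rex1-high and 35.7% in Rex1-low.

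The CpGs of members were followed from Rex1-high to Rex1-low. A smaller rise than in gaining tiles is set by the rule, which holds members at or below 65% in Rex1-low, so the values of gaining tiles are given for scale. Of 4646 member CpGs under 20% in Rex1-high, 47.1% were under 20% in Rex1-low, 52.0% were intermediate and 0.839% were over 80%. Their median went from 6.52% to 21.4%. In gaining tiles 9071 such CpGs had a median of 12.5% in Rex1-high and 58.1% in Rex1-low, and 14.4% were under 20% there. Of 9310 intermediate member CpGs, 64.0% were intermediate in Rex1-low and 32.6% were over 80%, with medians of 53.6% and 68.9%. Of 85712 intermediate CpGs in gaining tiles, 35.7% were intermediate in Rex1-low and 64.1% over 80%. The 1086 member CpGs over 80% in Rex1-high were over 80% in Rex1-low in 75.2%. In the uniform members, 374 of 2154 CpGs (17.4%) were under 20% in Rex1-high and 374 (17.4%) were over 80% in Rex1-low. The order of CpGs within a member was similar in the 2 libraries. Pearson's r between the libraries over the CpGs of a tile had a median of 0.79 in members (n = 1172 tiles) and 0.61 in gaining tiles (n = 8528). Both values share the base composition and cut sites of the tile, and r is lower where levels vary little.

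Part of the intermediate CpGs came from records that disagreed, and where the sequence was known nearly all of these CpGs were at enzyme sites. The files give 1 or 2 records for a CpG position, with no strand, and 80.9% of member CpGs in Rex1-high and 58.9% in Rex1-low had 2 records with 5 or more calls. In 1820 member CpGs of Rex1-high, 1 record had 80% or more and its partner 20% or less, which made up 19.5% of the intermediate member CpGs. In Rex1-low there were 979, or 11.3%. In gaining tiles the shares were 4.79% and 2.02%. Both records were intermediate at 34.9% of the intermediate member CpGs in Rex1-high and 31.5% in Rex1-low. Among the CpGs with known sequence, 12149 of 12184 with disagreeing records (99.7%) were at enzyme sites, and 48.4% of all enzyme-site CpGs had such records in at least 1 library. Leaving out CpGs with disagreeing records therefore removes hardly any other CpG there, and leaves many enzyme-site CpGs in place.

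Without CpGs whose records disagreed, 760 members (64.8%) kept levels of 35 to 65% in both libraries. In Rex1-high, 369 members (31.5%) fell under 35%, and in Rex1-low 43 (3.67%) were over 65% and 40 (3.41%) under 35%. No disagreeing record was present in 190 members (16.2%). Of the 760, 130 (17.1%) had been uniform and 173 (22.8%) had a step in their methylation. The share of intermediate CpGs without disagreeing records and with 20 or more calls was 61.2% in Rex1-high and 57.2% in Rex1-low, over 6554 CpGs.

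In 249 members (21.2%), the methylation changed along the tile in a step. For each tile the split was found that best separated its CpGs, in order along the chromosome, into 2 stretches of at least 2 CpGs, and a tile was called stepped if the means before and after differed by 40 points or more in both libraries and in the same direction. Among all tiles of 10 to 19 CpGs, 7.99% were stepped, and 1.25% of gaining tiles were. Gaining tiles were chosen for a high level in Rex1-low, which leaves little room for a step there, so their share is not a contrast. With the step required in Rex1-high only, the shares at 35 to 40% in that library were 27.7% in members and 11.8% in gaining tiles. Members had the larger share at each level up to 55%. At 55 to 65% it was 0% of 9 members and 3.05% of gaining tiles. The median difference across the step in members was 48.2 points in Rex1-high and 57.4 points in Rex1-low. In 145 stepped members (58.2%) the split fell between the same 2 CpGs in both libraries. The step rose along the chromosome in 134 members and fell in 115. With a minimum of 30 points, 45.6% of members were stepped, and with 50 points 6.91% were. High and low CpGs also alternated in part of the 923 members without a step. Of 418 of these with at least 2 CpGs under 20% and 2 over 80% in Rex1-low, 124 (29.7%) switched once between them along the tile, 150 switched 2 times and 144 (34.4%) switched 3 times or more. In Rex1-high 157 met this condition, of which 28 (17.8%) switched once and 77 (49.04%) 3 times or more. CpGs at most 10 bp apart in members differed by a median of 18.8 points in Rex1-high and 16.9 points in Rex1-low, and those 11 to 50 bp apart by 31.7 and 22.8 points. The difference did not keep growing with distance in Rex1-high. In the successive ranges above 50 bp it was 23.9, 16.8 and 19.1 points there, and 23.3, 24.6 and 26.1 points in Rex1-low. In gaining tiles the Rex1-high difference was also largest at 11 to 50 bp, at 23.4 points, against 17.9 points within 10 bp.

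The tiles beside members, which the rule did not use, were less methylated than tiles farther away. The tile before a member had medians of 42.8% in Rex1-high and 67.9% in Rex1-low (607 tiles with 3 or more CpGs), and the tile after had 47.3% and 73.6% (545 tiles). Tiles at a distance of 4 had 51.2% and 78.8% before and 52.0% and 79.9% after. The low level at the members themselves is set by the rule. All tiles of 10 to 19 CpGs also had lower neighbours, with Rex1-low medians of 79.3% just before and 80.2% just after, against 82.0% and 81.6% at a distance of 4. Around gaining tiles, chosen for more than 65% in Rex1-low, the medians stayed between 82.6% and 84.2% at all 8 distances. A neighbouring tile below 20% in both libraries was found beside 169 of 840 members that had a measured neighbour (20.1%), and beside 6.86% of such gaining tiles and 16.4% of all tiles. For stepped members it was 53 of 192 (27.6%), and for other members 116 of 648 (17.9%). In 46 of 53 stepped members with a low neighbour on 1 side (86.8%), the lower stretch of the member faced that neighbour. Adjacent members were rare: 36 members formed 18 pairs, and there was no longer run.

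**Figure D4:**
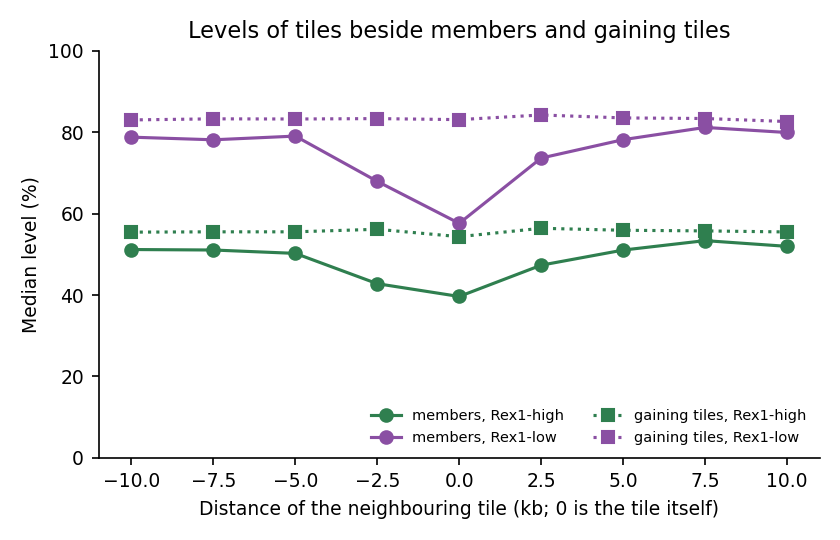
Median level (vertical axis, %) of tiles up to 10 kb away from members (circles, solid) and gaining tiles (squares, dotted), by distance in kb along the chromosome, in Rex1-high (green) and Rex1-low (purple). The Rex1-low median is 78.8% at the far left and 67.9% just before the members, and between 82.6% and 84.2% around gaining tiles, while the values at distance 0 are set by how the tiles were chosen.

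The 8 most even and 8 least even members show the range. They were taken from 709 members that stayed in the window without disagreeing CpGs, with 7 or more CpGs left and 150 or more calls in each library, by the mean SD of the 2 libraries. All coordinates of tiles are in mm9, and what is annotated there is not given, since no annotation of that build was used. The most even was chr4:46407501-46410000, at 55.4% in Rex1-high (176 of 310 calls) and 64.6% in Rex1-low (135 of 180 calls). Its 10 CpGs lay between 29.7% and 74.6% in Rex1-high and between 33.3% and 83.3% in Rex1-low. The tile chr17:22605001-22607500 had 11 CpGs at 40.9% and 56.8%, from 21.7% to 86.4% in Rex1-high and from 40.0% to 78.6% in Rex1-low. In this tile the CpG highest in Rex1-high, at 86.4%, was the lowest in Rex1-low, at 40.0%, the latter from 5 calls. The tile chr12:42105001-42107500 was at 38.02% and 54.1%, with 9 of its 10 CpGs intermediate in each library (90%). The tile with the most CpGs among these was chr2:39275001-39277500, whose 17 CpGs were at 41.2% and 64.5% and kept their order, with an r of 0.92 between the libraries. Its CpGs ran from 11.7% to 74.7% in Rex1-high and from 35.4% to 100% in Rex1-low. The remaining even tiles were chr13:110810001-110812500 (39.6% and 58.8%), chr9:66452501-66455000 (53.3% and 62.3%), chr2:146587501-146590000 (49.9% and 61.2%) and chr11:4702501-4705000 (44.5% and 63.4%). Their SD was 13.1 to 27.6 points in Rex1-high and 0 to 16.1 points in Rex1-low. The tile chr13:110810001-110812500 ranked as even through its SD of 0 points in Rex1-low and was not uniform. An SD of 0 means here that the spread did not exceed the counting variance. In Rex1-low the CpGs of this tile ran from 36.4% (11 calls) to 80% (5 calls). In Rex1-high its SD was 27.6 points, its CpGs ran from 0% to 100% and 66.7% of them were intermediate.

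The least even members combined CpGs near 0% with far higher ones. Intermediate were 31.25% to 60% of their CpGs in Rex1-high and 16.7% to 35.7% in Rex1-low. In chr17:36247501-36250000, which had 16 CpGs at 42.6% and 50.5%, the 6 CpGs between bases 725 and 759 of the tile had at most 7.27% in Rex1-high and 5.89% in Rex1-low. The 3 CpGs between bases 2417 and 2459 had 87.5% to 100% in Rex1-high and 88.9% to 100% in Rex1-low. Its pooled calls gave 27.9% and 27.1%, below the mean over CpGs, because the poorly methylated CpGs were covered more deeply. In chr1:165857501-165860000 (40.6% and 47.5%), 3 CpGs in the first 216 bases had 77.3% to 89.0% in Rex1-high and 83.3% to 97.7% in Rex1-low. Of the last 7 CpGs, from base 2329 on, 5 had at most 4.17% in either library. In chr4:133575001-133577500 (39.5% and 51.6%), CpGs near 0% alternated with higher ones without a step. Of its CpGs, 50% were intermediate in Rex1-high and 20% in Rex1-low. Its CpGs at bases 101 and 126 were at 100% and 0% in both libraries, and in all 4 of its 10 CpGs had at most 1.28% in both. The tile chr7:31502501-31505000 (38.4% and 46.1%) held 5 CpGs of at most 10.0% between bases 182 and 247. The tile chr17:27790001-27792500 (45.8% and 49.8%) had 7 CpGs of 37.6% or more up to base 1865. CpGs at 62.5% and 83.3% (base 2023) and at 100% and 48.1% (base 2419) followed. From base 2426 on, its last 6 CpGs had at most 14.3% in either library. The other 3 were chr18:80905001-80907500 (46.6% and 48.9%), chr2:91097501-91100000 (41.2% and 45.9%) and chr18:74615001-74617500 (45.003% and 63.1%). Of the 8 least even members, 7 were stepped.

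**Figure D5:**
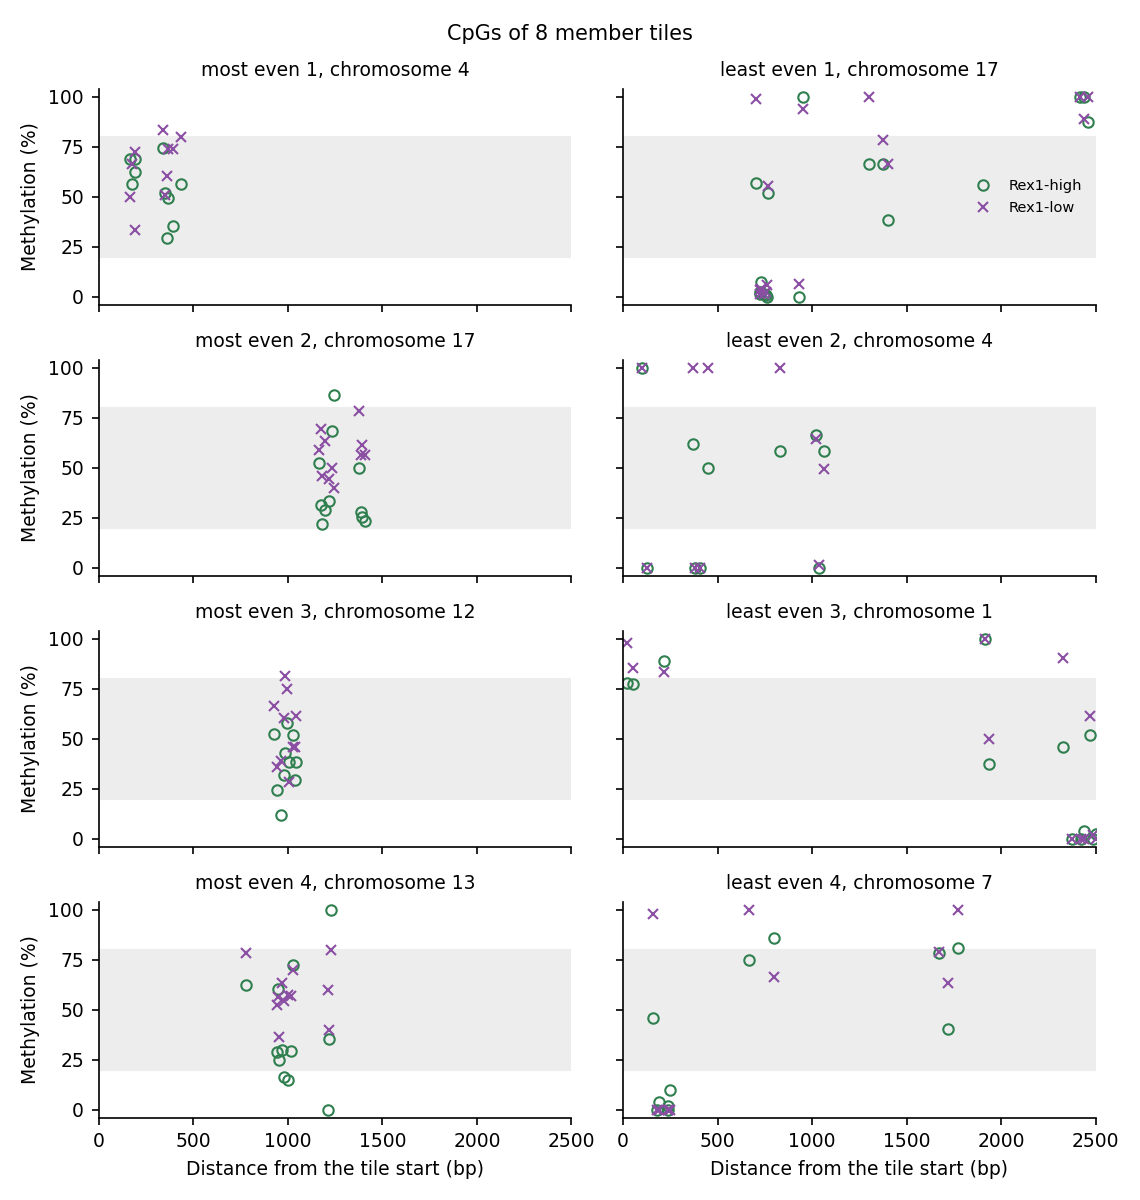
Methylation of each CpG (vertical axis, %) by its distance from the start of the tile (horizontal axis, bp) in the 4 most even (left) and 4 least even (right) members, in Rex1-high (green circles) and Rex1-low (purple crosses), with the intermediate range of 20 to 80% in gray. Even tiles have most CpGs in the gray band. In uneven tiles groups of CpGs lie near 0% in both libraries beside higher ones, part of which lie in the gray band.

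The 4 largest rises from Rex1-high to Rex1-low were 28.4 to 29.0 points, close to the limit of 30 points that the window allows. They were chr12:106782501-106785000 (35.7% and 64.7%), chr17:30727501-30730000 (35.05% and 63.9%), chr3:98622501-98625000 (35.3% and 63.7%) and chr2:164502501-164505000 (35.5% and 63.9%). The third of these was uniform, and 16 of its 17 CpGs were higher in Rex1-low. In the first, 4 CpGs between bases 1984 and 2028 went from at most 6.67% to between 40% and 50%. The 4 largest falls were −4.86 points at chr2:55480001-55482500 (55.9% and 50.998%), −3.06 points at chr2:28467501-28470000, −2.93 points at chr1:19202501-19205000 and −2.48 points at chr9:64185001-64187500. None of the 4 was called by Fisher's exact test, with adjusted p from 0.0957 to 0.574, and each is smaller than the counting interval of a member. In the largest fall the CpG at base 1524 went from 34.2% to 0% over 29 and 36 calls, while the CpG at base 1165 rose from 73.8% to 100%. With pooled calls all 4 falls became rises, of 2.65, 7.15, 4.23 and 5.31 points in the same order. They were also rises with 10 or more calls per record (3.53 to 14.0 points) and with summed records (0.390 to 6.45 points), so their direction depends on how calls were averaged. The 4 rises kept their direction, and with pooled calls the first was 19.3 points.

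Of the pairs of adjacent members, 3 with the most CpGs and the same requirements are given. At chr18:34705001-34710000 the first tile had 39.6% and 42.0% and was stepped, and the second had 40.96% and 48.8% over 16 CpGs and was uniform, with 87.5% and 93.8% of its CpGs intermediate. At chr1:75442501-75447500 the tiles had 46.1% and 62.9%, and then 40.5% and 49.3%. At chr7:25652501-25657500 both tiles were stepped, in opposite directions. The first had 36.8% and 46.2% with a difference of −70.9 points along the chromosome in Rex1-high, and the second had 38.7% and 44.9% with 52.7 points, so that the low stretches of the 2 tiles met at their boundary. The promoter of Dmrtc2, a gene of the DMRT family of transcription factors, was placed there, with its start site at chr7:25655077. The 10 CpGs of the first tile from chr7:25654857 to chr7:25654981, which lie before the start site, were at 0 to 59.1% in Rex1-high and at 4.35 to 48.6% in Rex1-low. Those at chr7:25654857 (35.5% and 41.7%) and chr7:25654941 (59.1% and 48.6%) stand inside TCGA, and the others had at most 26.3% and 41.7%. In the second tile, 2 enzyme-site CpGs of the promoter had means of 82.1% and 83.3%, and 4 others 7.91% and 21.6%. Without those 2 the second tile was at 31.4% in Rex1-high and 38.5% in Rex1-low.

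Start sites of few genes could be placed in members. A promoter was placed when every measured position in its 300 bases fell on a CpG of the sequence, with at least 10 such positions and a single place on its chromosome, which can find only promoters rich in measured CpGs. A start site lay in 725 of the 16943 tiles (4.28%) in 22 members (1.88%) and in 12 gaining tiles (0.141%), where 3.03% of tiles with a start site were members. The 22 tiles held the start sites of 23 genes. In 17 of them 3 or more measured CpGs of the tile lay within the 300 bases, and the promoter was less methylated than the rest of the tile in both libraries in 16. In none of the 17 was it at 35 to 65% in both libraries. The clearest was Pde11a, with 15.9% and 16.8% in the promoter and 64.9% and 92.3% over the 10 other CpGs of its tile. Mamstr, which encodes a coactivator of MEF2 factors, had 26.4% and 21.0% in its promoter and 51.2% and 65.2% outside. Cacng2, the gene of the AMPA receptor subunit stargazin, had 24.96% and 23.2% in the promoter and 45.6% and 71.1% outside. In Smtnl2 the values were 22.1% and 23.5% in the promoter and 47.3% and 52.4% outside. Diras1, a gene of a small GTPase of the Ras family, had 26.8% and 29.3% in the promoter and 54.3% and 55.5% outside. Without CpGs whose records disagreed, the tiles of Mamstr (30.5%), Cacng2 (29.8%) and Diras1 (29.6%) fell below 35% in Rex1-high. Of the 23 genes, 10 lay in tiles that stayed in the window without those CpGs.

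Enzyme sites made up much of the methylation inside these promoters. In Cacng2, 4 CpGs at enzyme sites had a mean of 49.9% in Rex1-high and 44.5% in Rex1-low, and the 4 others had 0% and 1.92%. In Mamstr the means were 55.4% and 39.3% at 4 enzyme-site CpGs, and 9.74% and 10.6% at 7 others. In Pde11a they were 47.7% and 49.5% at 3, and 0% and 0.536% at 6 others. Slc44a4, a gene of a choline transporter-like protein, differed, with others at 1.38% in Rex1-high and 38.3% in Rex1-low over 3 CpGs. In Gm12786 the 6 others had 19.8% and 49.2%. Without CpGs whose records disagreed, the tiles of Slc44a4 and Gm12786 fell to 32.2% and 33.0% in Rex1-high. Of 17 member promoters with a CpG at an enzyme site, 10 tiles left the window when those CpGs alone were left out. All 10 went below 35% in Rex1-high, and 1 of them, that of Slc44a4, also went above 65% in Rex1-low. Among the promoters printed above, the tiles of Smtnl2 (34.7% in Rex1-high) and Gm51541 (31.8%) left it. Those of Pde11a (40.5% and 57.9%), Gm35624 (50.4% and 61.4%) and Gm34267 (35% and 38.4%) stayed, the last at the edge. CpGs of these tiles outside the placed promoters, 10 in Pde11a, had no known sequence and were all kept. Whether the tiles would stay without all enzyme sites was therefore not tested.

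Among the other genes with a start site in a member were Gabarapl1 of the autophagy pathway (39.2% and 40.5% in its tile), Serpinh1, a collagen chaperone (35.8% and 44.9%), Pi4k2a, a phosphatidylinositol kinase (35.4% and 43.4%), Dnaaf3, a factor for the assembly of axonemal dyneins (47.1% and 55.3%), Gtf3c6, a subunit of TFIIIC (35.6% and 50.3%), and Sult2b1, a sulfotransferase of sterols (36.8% and 46.8%). The tile of Sult2b1 was the only uniform one among the 22. Without CpGs whose records disagreed, 4 of these tiles fell below 35% in Rex1-high. They were those of Gabarapl1 (32.0%), Serpinh1 (28.3%), Pi4k2a (16.1%) and Gtf3c6 (26.2%), while those of Dnaaf3 and Sult2b1 stayed in the window. For Pi4k2a and Gtf3c6 no measured CpG of the tile lay within the promoter, so the tile levels do not describe their start sites.

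Control regions of imprinted genes are a textbook case of intermediate methylation, and 53 imprinted genes were looked up. For 17 a promoter could be placed, and 0 of the 17 lay in a member. Only 4 of them lay in tiles of 10 to 19 CpGs, at 12.9% and 26.8% (a start site of Gnas), 19.7% and 20.6% (H13), 10.3% and 11.5% (Igf2r) and 26.7% and 30.1% (Mkrn3) in Rex1-high and Rex1-low. These levels include CpGs at enzyme sites. With such CpGs, the 235 tiles of mostly known sequence had medians of 15.3% and 17.9%, and without them 0.827% and 1.19%. Imprinted control regions outside these promoter windows were not analysed here.

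Members occurred on every autosome. Their share of the tiles of 10 to 19 CpGs was lowest on chromosome 3 (28 of 687, 4.08%) and chromosome 6 (31 of 734, 4.22%), and highest on chromosome 7 (105 of 1232, 8.52%) and chromosome 2 (102 of 1280, 7.97%). By the number of CpGs in a tile, the share was 6.41% at 10 CpGs, 8.35% at 15 and 4.72% at 19.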

How the data were processed

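RRBS data of 1 Rex1-high and 1 Rex1-low library were analysed. Per the submitters' processing notes the reads were processed with Bismark 0.7 against mm9. Each line of the deposited files gives a CpG position, methylated and all calls, and a score column set by the authors, which was not used. Neither strand nor the meaning of 2 records at a position is given in the sources used here. Each record had to hold 5 calls or more, fractions of records at a position were averaged, and positions in both libraries were grouped into tiles of 2500 bp. Calls of a tile were compared by two-sided Fisher's exact test with Benjamini-Hochberg adjustment, which compares these 2 libraries and not the states. Shares have exact binomial intervals. The classes and tests were tested on simulated data. RRBS reads carry no molecular identifiers, so intervals cover counting error only. The members, classes and lists were chosen with earlier results of these data known. Tiles were named by fixed ranks (8 most and 8 least even, 4 largest rises and falls, 3 pairs of adjacent members). The design allowed gene names only from an annotation of mm9, which was not used here. The design also named only tiles that stayed in the window without disagreeing records, which not all tiles of the named genes did. Matching RefSeq promoters (GRCm38.p6) to positions by CpG spacing was added after seeing the data, and no coordinate was converted between builds. Analyses used Python 3.11.15 with pandas 2.3.3 and SciPy 1.17.1, compiled loops numba 0.67.0, and plots matplotlib 3.10.9.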

Additional observations from a re-analysis of the deposited data

Results flagged for a closer look

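Chromosome X was left out of the comparison of autosomal tiles, and it also held tiles that met the same limits: 28 of its 361 tiles with 10 to 19 shared CpGs (7.76%, exact 95% interval 5.22 to 11.01%) were at 35 to 65% in both libraries, where 6.92% of the autosomal tiles were. The result was flagged because the signal lies in data that the comparisons did not use. Whether CpGs at enzyme sites had a part in it was not tested.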

How the results depend on the processing

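The alternatives were fixed with earlier results of these data known, and those for stepped tiles, named tiles and CpGs with 20 or more calls were added after seeing the data. The number of members was 1172, and 1101 to 1415 with summed records, pooled calls, shifted tiles, no upper limit of CpGs or thinned calls, and 815 with medians. It was 704 with 10 or more calls per record, 684 without CpGs whose records disagreed, 280 at 40 to 60% and 2773 at 30 to 70%. The median change (15.8 points) was 16.1 with 10 calls, 16.8 with summed records, 17.3 without disagreeing records, 15.1 with pooled calls, 10.2 with medians, 16.5 with shifted tiles, 11.6 at 40 to 60%, 18.3 at 30 to 70%, 16.3 with no upper limit of CpGs and 16.4 with thinned calls. The uniform share (14.8%) became 8.81% with 10 calls, 10.4% with pooled calls, 17.1% at 40 to 60%, 12.6% at 30 to 70%, 8.99% with thinned calls, 4.01% with intermediate as 25% to 75%, 3.24% with class limits of 80% and 20% of CpGs, 0.256% by SD and 22.1% over CpGs with 20 or more calls (847 members). The mixed share (0.256%) became 2.56% with 10 calls, 1.75% without disagreeing records, 0% with medians, 0% at 40 to 60%, 0.817% with thinned calls, 1.19% with 25% to 75%, 0% with limits of 80% and 20%, 22.2% by SD and 0.826% over CpGs with 20 or more calls. The stepped share (21.2%) became 30.7% with 10 calls, 31.0% without disagreeing records, 18.7% with medians, 26.8% at 40 to 60%, 18.1% at 30 to 70%, 25.6% with thinned calls, 45.6% at a step of 30 points and 6.91% at 50 points. The cause of these moves was not tested. Tiles called between the libraries numbered 120224 by Fisher's exact test, 119870 by the Cochran-Mantel-Haenszel test, 80216 with 10 calls and 129627 with summed records. Of 30 named tiles, the change moved beyond its counting interval in 13 with medians, 12 with 10 calls, 10 with pooled calls, 4 with summed records, 2 with thinned calls and 1 without disagreeing records. No paired analysis was possible because each state has 1 library, and no library could be left out. The depth leaves ±7.21 points on the change of a typical member.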
